A study of Mus musculus with 48 samples.

Results

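The libraries described here are all those made from tumor-draining lymph nodes (TDLNs), 24 of the 48 in the series, and they were chosen by the tissue in their labels. They hold sorted CD4+ and CD8+ T cells and CD45+ cells without CD4 or CD8, with 4 WT and 4 Yap-cKO libraries of each population. The question asked was which genes separated the 12 Yap-cKO from the 12 WT libraries once the sorted population was taken into account, and which of these did so in every population. Mice of both genotypes were described as C57BL/6J. All carried a subcutaneous B16F10 tumor, a melanoma line derived from this strain, and were between 6 and 10 weeks old. Yap-cKO mice carried Yap alleles flanked by loxP sites and a Cre transgene driven by Cd4 promoter elements, Tg(Cd4-cre)1Cwi, on a line that also holds the LSL-EYFP reporter. The loxP line had been backcrossed to C57BL/6 over 10 generations before it was crossed to the Cre and reporter lines. Whether sequence of a donor strain remained near these loci or elsewhere was not tested. WT animals were littermates, and whether they carried the Cre or the reporter was not given in the sources used here. The Cd4-driven Cre acts in developing T cells that express both coreceptors, so the allele is recombined in mature CD4+ and CD8+ T cells and not in most other CD45+ cells. The lymph node was the inguinal node that drains the tumor.

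Yap is a transcriptional coactivator that binds DNA through the Tead factors. It is held in the cytoplasm when the Hippo kinases phosphorylate it, with Stk3 and Stk4 acting on Lats1 and Lats2 and these on Yap. Known Yap targets include matrix, cytoskeletal and cell cycle genes. Resting T cells express little Yap, and the lymph node of these mice holds mostly resting T and B cells.

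The populations carried the markers of their labels. The sum of 5 T cell markers was between 3625 and 7548 CPM (counts scaled to the library total) in the CD4+ and CD8+ libraries and between 75.4 and 177 CPM in CD45+ libraries. Cd4 was between 661 and 1030 CPM in CD4+ libraries and at most 5.32 CPM in CD8+ libraries. Cd8a was between 710 and 1240 CPM in CD8+ libraries and at most 7.21 CPM in CD4+ libraries. In the CD45+ libraries 8 B cell markers summed to between 9258 and 11133 CPM. CPM values are not scaled per gene length, so levels are compared between libraries and not between genes. In sorted bulk samples, fewer cells of a type and less RNA per cell cannot be told apart.

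Some libraries stood apart in ways that touch the results. The Y-linked gene Ddx3y was at 17.7 CPM or more in WT replicates 1 to 3 of every population and at no more than 0.399 CPM in the other 15 libraries, WT replicate 4 and all Yap-cKO libraries. Y-linked and other sex differences can therefore be told apart from genotype only through WT replicate 4, and genes of chromosome Y were left out of the tests. In CD45+ cells, WT replicate 4 held the most monocyte and macrophage marker counts, with 3712 CPM summed over 7 genes. The other WT CD45+ libraries held between 201 and 1015 CPM and the Yap-cKO CD45+ libraries between 154 and 397 CPM. The first principal component of the population-centred values held 61.9% of the variance, and followed the slope of a library's values on the GC content of genes (r = -0.994 over 24 libraries, a description). That slope ranged from -0.763 to 0.763 log2 units per 10 percentage points of GC in WT libraries (median 0.224) and from -0.807 to 0.544 in Yap-cKO libraries (median -0.274). With this slope as a covariate, an alternative chosen after seeing the data, 17 of the 22 genes called below were still called. The other 5 were Plcd3 (adjusted p = 0.0524), Ighg2c (0.0599), Akap1 (0.0776), Ccl6 (0.193) and Gm2011, whose log2 fold change became 0.98.

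Yap1 itself, the targeted gene on chromosome 9, did not separate the genotypes in the TDLN. It stood between 1.22 and 2.51 CPM in the 12 WT libraries, with a median of 2.05, and between 1.09 and 4.46 CPM in the 12 Yap-cKO libraries, with a median of 1.70. The 2 ranges overlapped in each population, and the highest single value was in Yap-cKO CD8+ replicate 3. The pooled log2 fold change was 0.02 ± 0.21 (SE), with an adjusted p of 0.976 in edgeR's quasi-likelihood test. Exact two-sided permutation tests gave p = 0.457 in CD4+, p = 1.00 in CD8+ and p = 0.571 in CD45+ cells, with n = 4 per group. In tumor-infiltrating cells (TILs) of the same series Yap1 had a median of 16.4 CPM in WT libraries and of 2.44 CPM in Yap-cKO libraries, a log2 fold change of -2.04. These values pool CD4+, CD8+ and other CD45+ cells. The part of each population, or of tumor cells in the sorts, in the TIL difference was not tested. The TIL difference was lower than the TDLN one by a log2 value of -2.09 (adjusted p = 3.09e-05). The deposited values are sums over whole transcripts, so reads of the floxed part of Yap1 cannot be set apart, and the check of the genotype labels through this gene is weak in the TDLN. Yap-cKO below stands for the libraries so labelled.

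Over the pooled libraries 22 of 15012 genes were called, 0.147% of those tested, with 0.05 as the limit for the adjusted p and a change of more than 1 on the log2 scale in either direction. Of these, 11 were higher and 11 lower in Yap-cKO. At an adjusted p alone, 29 genes passed, 0.193% of those tested, 14 higher and 15 lower. All 22 lay on autosomes and had the same direction in the 3 populations. The pooled fit that chose them used the same libraries and favors genes of 1 direction, so this is a description. Annotation classed 9 of the 22 as pseudogenes, 7 of them processed, 12 as protein coding and 1 as an immunoglobulin constant gene. No gene of the immune lists was among them. The difference between populations was tested as an interaction, which 0 genes passed in edgeR and 5 in DESeq2 at an adjusted p under 0.05. At an unadjusted p under 0.05, 234 of the 15012 genes passed in edgeR. That share is below the 0.05 that would pass on average if no gene differed.

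Sorted by population, 11 genes were called in CD4+ cells (0.0733% of those tested), 8 in CD8+ cells (0.0533%) and 13 in CD45+ cells (0.0866%). In all, 18 genes were called in at least 1 population. Of these, 6 were called in all 3 populations, namely Rps3a3, Gm7600, Cfap74, Cnbd2, Gm46223 and Rab6b. Gm46223 and Rab6b were only just called in CD8+ cells, each with an adjusted p of 0.0498 in edgeR. Another 2 were called in 2 populations, Gm4956 in CD4+ and CD45+ cells and Vmn2r97 in CD4+ and CD8+ cells. The remaining 10 were called in a single population. By a second definition, a pooled call with the same sign and an unadjusted p under 0.05 in every population, 19 genes were shared, of which 10 were higher and 9 were lower. The 3 called genes that were not shared by this definition were Tgif1-ps, Ighg2c and Ccl6. The ranges of both genotypes were apart in every population for 14 genes, 0.0933% of those tested, and 10 of these 14 were among the called genes. The other 4 passed the adjusted p with a smaller fold change, and were Rps3a1, Miga1, Chd9 and Olfr784.

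**Figure D1:**
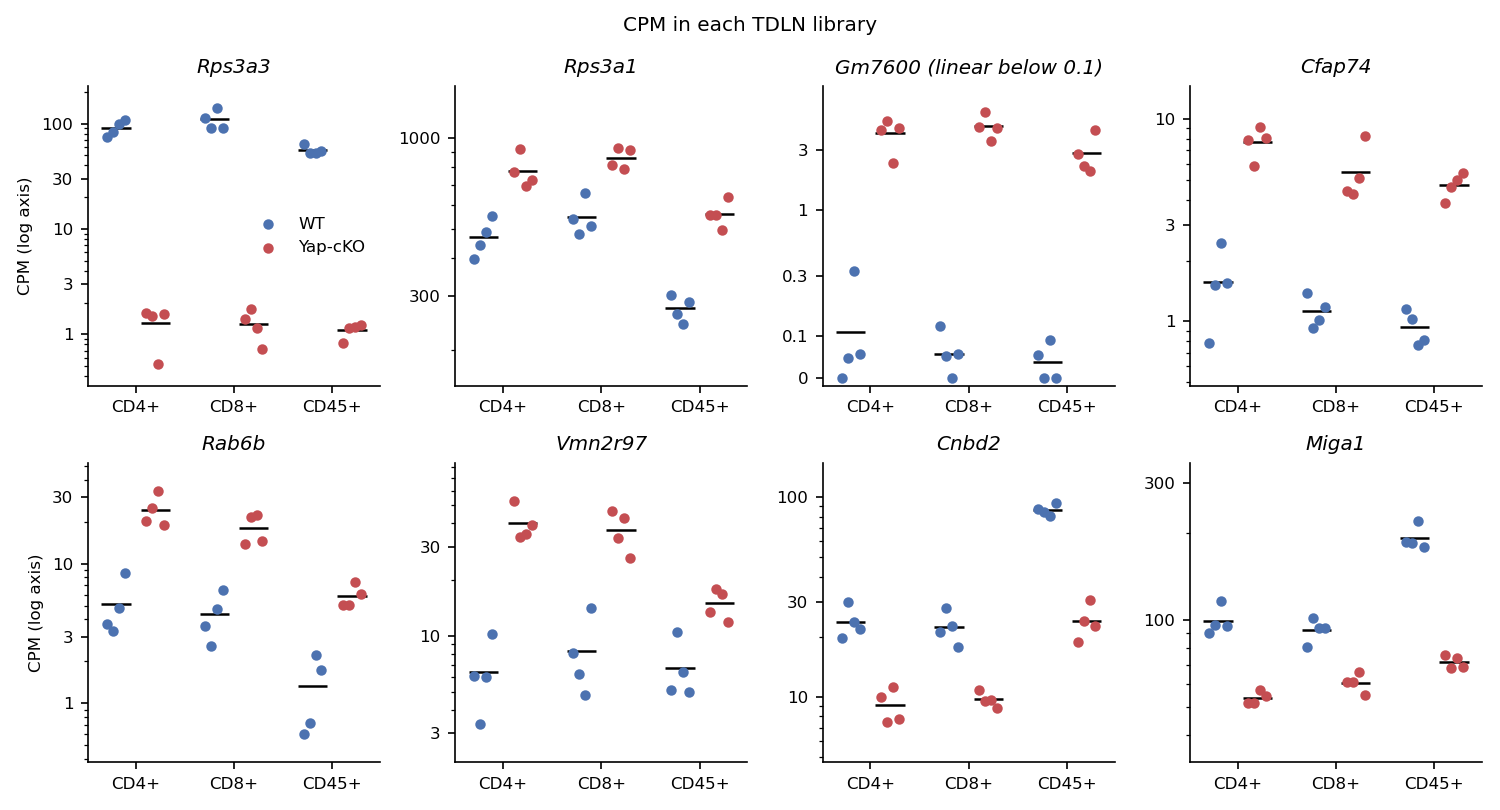
CPM of 8 genes in each TDLN library on log axes (Gm7600 is linear below 0.1 CPM), with WT libraries in blue, Yap-cKO libraries in red and black lines at the mean of 4 libraries. In all 8 genes the WT and Yap-cKO points of a population do not overlap, and Rps3a3 separates most, with 52.0 to 142 CPM in WT and 0.517 to 1.73 CPM in Yap-cKO libraries.

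Among the genes lower in Yap-cKO, the smallest p belonged to a copy of a ribosomal protein gene. Rps3a1 encodes a protein of the small ribosomal subunit, and its spliced mRNA has been copied back into the genome many times as processed pseudogenes. Rps3a3 (ENSMUSG00000059751.7, chr13:108670603-108671397, plus strand, GRCm38) is such a copy and lies inside the gene Pde4d. Gm7600 (ENSMUSG00000109933.1, chr8:11683459-11684243, minus strand) is another. The coding sequence of Rps3a1 has 795 bases, and Rps3a3 matched it with 9 mismatches (98.9% identity) and no gap. Gm7600 aligned over 785 bases with 10 mismatches and lacked 4 bases. Bases 197 to 436 of the coding sequence are printed because the copies differ from Rps3a1, and from each other, at several places there, which is what lets reads be assigned to one of them. The sequences come from GENCODE release M21 transcripts and run 5′ to 3′. Capitals mark bases that differ from Rps3a1 in the copies and, in Rps3a1, every base at which either copy differs or which Gm7600 lacks. The stretch of Rps3a1 is spread over its exons within chr3:86137940-86142702 on the minus strand, that of Rps3a3 is chr13:108670799-108671038 and that of Gm7600 is chr8:11683818-11684053.
Rps3a1: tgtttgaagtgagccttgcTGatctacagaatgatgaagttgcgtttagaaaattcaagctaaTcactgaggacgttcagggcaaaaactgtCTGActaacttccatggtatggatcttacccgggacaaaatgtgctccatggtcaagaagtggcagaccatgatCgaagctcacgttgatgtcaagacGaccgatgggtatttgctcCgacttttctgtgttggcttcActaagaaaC
Rps3a3: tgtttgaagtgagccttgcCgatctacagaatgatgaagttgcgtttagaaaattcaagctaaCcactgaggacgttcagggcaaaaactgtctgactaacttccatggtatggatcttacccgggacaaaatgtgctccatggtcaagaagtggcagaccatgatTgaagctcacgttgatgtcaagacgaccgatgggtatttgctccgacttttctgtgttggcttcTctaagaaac
Gm7600: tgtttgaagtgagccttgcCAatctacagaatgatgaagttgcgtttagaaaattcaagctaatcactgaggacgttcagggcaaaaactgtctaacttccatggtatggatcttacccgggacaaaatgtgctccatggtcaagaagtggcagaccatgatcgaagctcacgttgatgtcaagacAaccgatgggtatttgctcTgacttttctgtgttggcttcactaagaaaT

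Rps3a3 was at 74.5, 82.4, 98.7 and 107 CPM in the WT CD4+ libraries and at 1.58, 1.49, 0.517 and 1.56 CPM in the Yap-cKO CD4+ libraries. For CD8+ cells the WT values were 113, 91.7, 142 and 91.7 CPM and the Yap-cKO values 1.38, 1.73, 1.15 and 0.725 CPM. WT CD45+ libraries held 64.5, 52.0, 52.5 and 54.8 CPM, and Yap-cKO CD45+ libraries 0.822, 1.14, 1.16 and 1.23 CPM. Every WT library was above every Yap-cKO library by a wide margin, in all 3 populations. The pooled log2 fold change was -6.10 ± 0.19 (SE), with an adjusted p of 3.08e-17 in edgeR. By population the log2 fold change was -6.14 ± 0.32 in CD4+, -6.45 ± 0.33 in CD8+ and -5.68 ± 0.32 in CD45+ cells, and the interaction had an unadjusted p of 0.166.

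Gm7600 went the other way. It was at 0.325 CPM or less in all WT libraries, with a median of 0.0530 CPM, and between 2.03 and 6.04 CPM in all Yap-cKO libraries. The pooled log2 fold change was 5.71 ± 0.40 (adjusted p = 1.23e-09). In CD8+ and CD45+ cells no WT library held more than 3 counts, and against a floor of 3 counts per library the Yap-cKO mean was at least 27.2-fold and 19.0-fold higher. The parent gene Rps3a1 was also higher in Yap-cKO, with 496 to 927 CPM (median 749) against 243 to 657 CPM (median 461) in WT. Its log2 fold change was 0.80 ± 0.09 (adjusted p = 7.02e-06), under the fold threshold in the pool but above it in CD45+ cells, where it was 1.03 ± 0.16 (adjusted p = 0.00187). The closest copy by sequence, Rps3a2, was not called, with a log2 fold change of -0.09 ± 0.09 (adjusted p = 0.715).

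Reads of these genes can be assigned to the wrong copy, so their sum was taken as well. The longest stretch with no difference between Rps3a3 and Rps3a1 was 215 bases. Rps3a3 made up 15.2% to 17.8% of the sum of Rps3a1, Rps3a3 and Gm7600 in WT libraries and 0.0744% to 0.233% in Yap-cKO libraries. The sum of the 3 genes was 561 ± 80.1 CPM in WT CD4+ cells and 783 ± 103 CPM in Yap-cKO CD4+ cells (SD, n = 4, exact permutation p = 0.0286, the smallest that 4 against 4 allows). In CD45+ cells the sum rose from 330 ± 31.4 CPM to 565 ± 58.9 CPM in Yap-cKO (n = 4, exact p = 0.0286). In CD8+ cells the means were 657 ± 100 CPM for WT and 865 ± 70.7 CPM for Yap-cKO, and the groups overlapped (n = 4, exact p = 0.0571). Over all 15 genes that share sequence with Rps3a1, the Yap-cKO sum was 1.27 times the WT sum in CD4+, 1.2 times in CD8+ and 1.56 times in CD45+ cells. The p-values were 0.0571, 0.0857 and 0.0286 (exact permutation, n = 4 per group, two-sided, without adjustment over the 6 sums).

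Other called pseudogenes were at or near 0 in one genotype. Tgif1-ps, a copy of the gene of the homeodomain repressor Tgif1, was at 0 CPM in all 12 WT libraries. In Yap-cKO CD4+ libraries it was at 1.41, 6.11, 4.98 and 5.44 CPM, and in Yap-cKO CD8+ libraries at 0.165, 0.707, 1.2 and 0.604 CPM. In Yap-cKO CD45+ cells only replicate 2 had counts of it (0.297 CPM). Against 3 counts per library it was at least 27.4-fold higher in CD4+ and 3.92-fold higher in CD8+ cells, and the pooled adjusted p was 0.000832. Gm15975, a copy of the poly(A) polymerase gene Tent2 with 98.6% identity over 1180 bases, was lower in Yap-cKO. It was between 0.120 and 3.03 CPM in WT and at most 0.222 CPM in Yap-cKO libraries, and the ranges overlapped in CD8+ cells (adjusted p = 0.000558). The unprocessed pseudogene Gm4956 was at 0.276 CPM or less in WT. It reached 8.73, 7.86, 2.54 and 2.67 CPM in Yap-cKO CD4+ cells, 0.526 to 1.22 CPM in CD45+ cells and 0.110 to 0.240 CPM in CD8+ cells. Its log2 fold change was 4.54 ± 0.46 (adjusted p = 9.27e-07).

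Gm46223 is annotated as a processed pseudogene, and 218 of its bases matched Chd9, a chromatin remodeler of the CHD family, with 95% identity. It was abundant in all libraries, with 96.8 to 361 CPM in WT and 32.0 to 105 CPM in Yap-cKO. The log2 fold change was -1.53 ± 0.14 (adjusted p = 1.32e-07), and no population had overlapping groups. Chd9 itself had 144 to 578 CPM in WT and 92.9 to 245 CPM in Yap-cKO libraries, with a pooled log2 fold change of -0.92 ± 0.12 (adjusted p = 0.000108). In CD45+ cells Chd9 was called, at -1.54 ± 0.16 (adjusted p = 6.08e-06). Reads of the shared stretch could belong to either gene, and their part in the result was not tested.

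Coding genes that were higher in Yap-cKO included a pair of neighbors on chromosome 4. Cfap74, a protein of cilia and flagella (chr4:155409190-155466823), was between 0.768 and 2.44 CPM in WT (median 1.09) and between 3.87 and 9.11 CPM in Yap-cKO (median 5.29). Its log2 fold change was 2.30 ± 0.18 pooled (adjusted p = 6.31e-09) and 2.30, 2.28 and 2.32 in CD4+, CD8+ and CD45+ cells. Gabrd, the delta subunit of the GABA-A receptor, lies on the other strand, 11.1 kb away (chr4:155384980-155398112). It was at 0.0557 CPM or less in WT and between 0.0643 and 0.863 CPM in Yap-cKO libraries. Against 3 counts per library it was at least 2.97-fold, 2.63-fold and 2.37-fold higher in CD4+, CD8+ and CD45+ cells (pooled adjusted p = 3.65e-06).

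Rab6b, a small GTPase of Golgi transport best known from neurons, was between 0.602 and 8.60 CPM in WT (median 3.44) and between 5.05 and 33.1 CPM in Yap-cKO (median 16.7). Within each population the groups did not overlap, and the log2 fold change was 2.15 ± 0.22 (adjusted p = 9.27e-07). Its adjusted p was 0.0665 with the libraries of each number summed. Vmn2r97, a vomeronasal receptor gene of a family with near relatives, rose from a WT range of 3.34 to 14.0 CPM to a Yap-cKO range of 11.9 to 53.1 CPM. Its log2 fold change was 2.66 ± 0.35 in CD4+, 2.16 ± 0.35 in CD8+ and 1.15 ± 0.34 in CD45+ cells, where it was not called (adjusted p = 0.405). The unadjusted interaction p was 0.0138, and no gene passed after adjustment. Slco1a6, an organic anion transporter, was higher by a log2 value of 1.88 ± 0.26 (adjusted p = 0.000193). Gm2011, a transcribed pseudogene that shares sequence with Abhd18 and with many other genes, was higher by 1.07 ± 0.16 (adjusted p = 0.000735), and its call was lost without Yap-cKO CD8+ replicate 3, where the log2 fold change was 0.997.

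Among the coding genes that were lower, Cnbd2, a cyclic nucleotide binding protein known from sperm, had 21, 27.7, 22.7 and 17.8 CPM in WT CD8+ libraries. The Yap-cKO CD8+ libraries had 10.8, 9.51, 9.59 and 8.82 CPM. In CD45+ cells it was higher in both genotypes, with 80.1 to 93.3 CPM in WT and 18.9 to 30.5 CPM in Yap-cKO. The log2 fold change was -1.48 ± 0.12 (adjusted p = 2.06e-08). A stretch of 203 bases of Cnbd2 is identical to Scand1 on the opposite strand, and the counts were not known to use strand, so reads there cannot be told apart. Cdk5rap1, an enzyme that modifies mitochondrial tRNAs, lies 1.94 Mb from Cnbd2 on chromosome 2 and had a log2 fold change of -1.60 ± 0.21 (adjusted p = 0.000103).

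Camk2b, the beta subunit of a calcium and calmodulin dependent kinase, was between 4.16 and 21.5 CPM in WT and between 2.62 and 11 CPM in Yap-cKO libraries. Its log2 fold change was -1.32 ± 0.17 (adjusted p = 7.49e-05). Pkd1l1, a polycystin-like ciliary protein, lies 2.76 Mb away on chromosome 11. It reached 1.57 CPM in WT and was at 0 CPM in 10 of the 12 Yap-cKO libraries, with at most 0.192 CPM in the others (adjusted p = 0.000218). Against 3 counts per library it was at least 6.71-fold lower in CD4+ and 6.21-fold lower in CD45+ cells. Plcd3, a phosphoinositide phospholipase C, fell by 2.10 on the log2 scale (SE 0.39, adjusted p = 0.0108). Akap1, which anchors protein kinase A at mitochondria, fell by 1.23 (SE 0.26, adjusted p = 0.0488). The Akap1 call was lost in 19 of the 24 fits that left out 1 library, most without Yap-cKO CD8+ replicate 2 (adjusted p = 0.117).

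**Figure D2:**
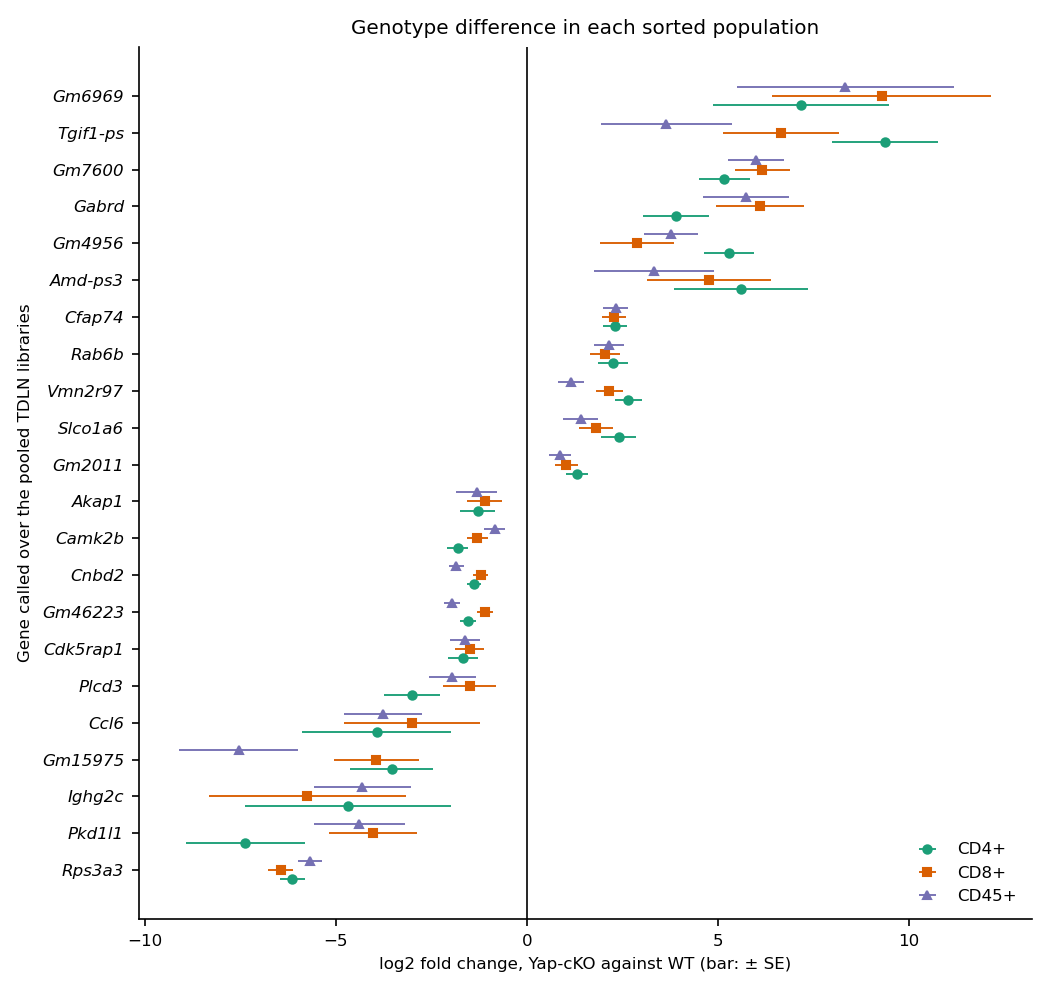
Log2 fold change of Yap-cKO against WT (x axis, bars are SE) for the 22 called genes, estimated in CD4+ (circles), CD8+ (squares) and CD45+ cells (triangles) in the fit with 6 groups. All 3 symbols of a gene lie on the same side of 0, which the choice of genes by the pooled fit of these libraries favors. Estimates run from Gm15975 at -7.54 in CD45+ cells to Tgif1-ps at 9.38 in CD4+ cells. These 2 sizes are uncertain, because 1 genotype held 0 counts in all 4 libraries. Against 3 counts per library, Gm15975 was at least 7.75-fold lower and Tgif1-ps at least 27.4-fold higher in Yap-cKO.

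Several called genes followed the replicate number across the 3 populations. Gm6969, a copy of the gene for Cox7a2l, a factor of respiratory chain assembly, was at 10.8 and 8.34 CPM in Yap-cKO CD4+ replicates 1 and 2. In replicates 3 and 4 of the same group it was at 0.0939 and 0 CPM. Yap-cKO CD8+ libraries had 10.3, 6.36, 0.192 and 0 CPM and Yap-cKO CD45+ libraries 4.16, 4.35, 0 and 0.117 CPM, while all WT values were at most 0.0551 CPM. Replicates 1 and 2 were thus high in each population, and replicates 3 and 4 were at 0.192 CPM or less. Amd-ps3, a copy of the polyamine synthesis gene Amd1, had the same split. Its Yap-cKO values were 11.4, 20.7, 0.564 and 2.44 CPM in CD4+, 22.8, 25.8, 0.384 and 1.45 CPM in CD8+ and 7.79, 7.72, 0 and 0.877 CPM in CD45+ cells, against at most 1.43 CPM in WT. The Amd-ps3 call was lost in 16 of the 24 fits that left out 1 library, with an adjusted p of up to 0.0810.

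In WT mice the same was seen for Pkd1l1, which was at 0.163, 0.272 and 0.0452 CPM in replicate 3 of CD4+, CD8+ and CD45+ cells and between 0.924 and 1.57 CPM in the other WT libraries. Cdk5rap1 was lowest in replicate 2 among WT libraries, with 51.0, 43.1 and 32.0 CPM in CD4+, CD8+ and CD45+ cells, against 77.9 to 153 CPM in the others. Among Yap-cKO libraries it was lowest in replicate 4, with 16.8, 19.3 and 14.2 CPM. The labels do not say whether libraries with the same genotype and number came from the same mouse. Deviations from the group means correlated between CD4+ and CD8+ libraries of the same genotype and number with a mean r of 0.474 (-0.0791 to 0.8), and 7 of 8 matched their own number best. Between CD4+ and CD45+ libraries the mean r was -0.0196 (1 of 8) and between CD8+ and CD45+ libraries 0.0594 (3 of 8). These are descriptions across genes. The highest CD4+ and CD8+ value was in WT number 4, with GC slopes of -0.438 in CD4+ and -0.763 in CD8+ cells. The lowest was in Yap-cKO number 4, with slopes of -0.611 and 0.288. The part of the GC slope in these correlations was not tested. If libraries of 1 genotype and number came from 1 mouse, the 12 libraries of a genotype stand for 4 mice. P-values over 12 against 12 libraries are then too small. With the 3 libraries of a number summed to 1, 11 genes were called, 9 of which were among the 22. Gm6969 (adjusted p = 0.656), Amd-ps3 (0.656), Pkd1l1 (0.519) and Cdk5rap1 (0.499) were then not called by edgeR. Of the other 9 genes that lost the call, Camk2b (0.0574), Rab6b (0.0665), Gm15975 (0.0773) and Slco1a6 (0.125) had the smallest adjusted p-values, and Gm2011, Plcd3, Ighg2c, Ccl6 and Akap1 were at 0.353 or more. With genotype and number as a random block in limma, 18 genes were called and 17 of these were among the 22.

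**Figure D3:**
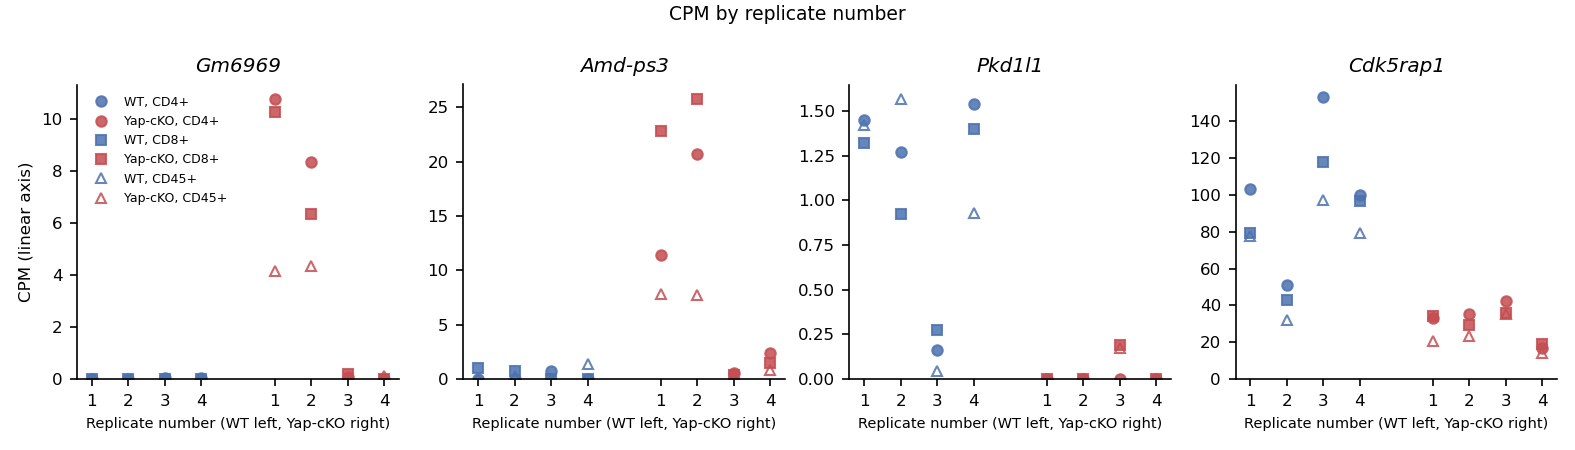
CPM on linear axes of 4 genes by replicate number, with WT numbers on the left (blue) and Yap-cKO numbers on the right (red), circles for CD4+, squares for CD8+ and open triangles for CD45+ libraries. Gm6969 and Amd-ps3 are high in Yap-cKO numbers 1 and 2 of every population, Pkd1l1 is low in WT number 3, and Cdk5rap1 is lowest in WT number 2 and Yap-cKO number 4.

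A pair of called genes rested on 1 or a few CD45+ libraries. Ccl6, a chemokine of myeloid cells, was at 31.0, 6.46, 30.6 and 617 CPM in WT CD45+ libraries and at 6.96, 11.4, 15.9 and 16.1 CPM in Yap-cKO CD45+ libraries. Only WT replicate 4 was above the others by a wide margin, and it is the library with the most monocyte and macrophage marker counts. The log2 fold change was -3.68 ± 0.79 (adjusted p = 0.0483) with that library and -1.94 without it (adjusted p = 0.627). The call was lost in 18 of the 24 fits that left out 1 library, among them libraries of each population and both genotypes. Ighg2c, an immunoglobulin heavy chain constant gene, was at 0.274, 3.95, 59.3 and 5.71 CPM in WT CD45+ and at 0.774, 1.73, 0.407 and 0.526 CPM in Yap-cKO CD45+ libraries. Its log2 fold change was -4.44 ± 0.86 (adjusted p = 0.0146) and became -2.87 without WT CD45+ replicate 3 (adjusted p = 0.227), and the call was lost in 4 of 24 such fits. The sum of 5 plasma cell markers in CD45+ cells was 239 to 460 CPM in WT and 252 to 295 CPM in Yap-cKO. The part of these cells in either result was not tested.

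In CD45+ cells 6 genes were called that were not called in the pool. Miga1, an outer mitochondrial membrane protein of mitochondrial fusion, had a log2 fold change of -1.43 ± 0.14 there and of -0.97 ± 0.10 in the pool (adjusted p = 1.55e-06). Its values ran from 179 to 220 CPM in WT CD45+ and from 68.5 to 75.6 CPM in Yap-cKO CD45+ libraries. Cep85, a centrosomal protein, was at 367 to 539 CPM in WT and 148 to 240 CPM in Yap-cKO CD45+ cells (-1.35 ± 0.21, adjusted p = 0.00229). Rsph3b, a radial spoke protein gene whose transcript matches Rsph3a with 99.4% identity over 1823 bases, had a log2 fold change of -1.24 ± 0.21 (adjusted p = 0.00608). Gpnmb, a glycoprotein of macrophages and pigment cells, was at 1.63 to 3.04 CPM in WT and at 0.346 to 0.435 CPM in Yap-cKO CD45+ cells (-2.66 ± 0.38, adjusted p = 0.000756). In CD4+ cells Gpnmb had a log2 fold change of 0.12 ± 0.33. In the same CD45+ libraries the mean sum of melanoma markers was 18.2 CPM for WT and 8.05 CPM for Yap-cKO, and that of monocyte and macrophage markers 1462 and 309 CPM. Both sums overlapped between the genotypes. The monocyte and macrophage sum ran from 201 to 3712 CPM in WT, with the most in replicate 4, and from 154 to 397 CPM in Yap-cKO. The part of these markers in the Gpnmb result was not tested. The other 2 of these genes were Chd9 and Rps3a1.

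In CD8+ cells 1 gene was called that was not called in the pool. Gzmc, which encodes the cytotoxic granule protease granzyme C, was at 2.57, 4.57, 3.13 and 0.561 CPM in WT and at 0.386, 0, 0.144 and 0.0604 CPM in Yap-cKO CD8+ libraries. The log2 fold change was -4.10 ± 0.78 (adjusted p = 0.0498). In CD4+ cells it was 0.06 ± 0.64 and in CD45+ cells 0.48 ± 0.62, and the unadjusted interaction p was 0.000256, which did not pass over all genes. All 11 genes called in CD4+ cells were also called in the pool. At an unadjusted p under 0.05, 281 of 15012 tested genes passed in CD4+, 270 in CD8+ and 574 in CD45+ cells. Each of these shares is below the 0.05 that would pass on average if no gene differed.

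Lists of Hippo and immune genes gave no calls in the pool. Of 15 tested Hippo kinases and regulators, 9 had a positive and 6 a negative value (median log2 fold change 0.05), and 0 passed even at an unadjusted p under 0.05. The values were 0.18 ± 0.12 for the kinase Stk4 and -0.18 ± 0.10 for Nf2, the scaffold upstream of the kinases. Among Yap, Taz and Tead factors 3 genes were tested, Yap1, Tead2 (0.40 ± 0.20) and Tead3 (0.30 ± 0.27). Of 12 tested Yap and Taz targets 9 were negative, with a median of -0.14, and again 0 had an unadjusted p under 0.05. Birc5, an inhibitor of apoptosis that is also a mitotic gene, had -0.40 ± 0.21. The median over all tested genes was 0.01, and 7657 of them were positive and 7355 negative.

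Genes of T cells were read against a background in which 2.40% of all tested genes had a positive and 4.66% a negative log2 fold change at an unadjusted p under 0.05. The pool includes the CD45+ libraries, which held few counts of T cell markers. Of 20 activation and costimulation genes 13 were negative, with a median of -0.18. By population this median was -0.19 in CD4+, 0.21 in CD8+ and -0.50 in CD45+ cells, so the CD8+ cells had the other sign. Tigit, an inhibitory receptor (-0.72 ± 0.26), and Tnfrsf4, the costimulatory receptor OX40 (-0.65 ± 0.30), had an unadjusted p under 0.05, and both had an adjusted p above 0.5. Of 18 genes of proximal T cell receptor signaling 13 were negative (median -0.13), among them the adaptor Lat at -0.40 ± 0.17. Naive and central memory genes had a median of 0.02 over 12 genes, with 6 positive and 6 negative. Of 19 effector and cytotoxic genes 14 were negative (median -0.15), and of 20 cell cycle genes 17 were negative (median -0.26). In the last list E2f1, a transcription factor of the G1/S transition, had -0.60 ± 0.22 and the replication licensing gene Mcm2 -0.41 ± 0.18.

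Of 13 chemokine receptors 10 were negative (median -0.23), and Ccr8 had the smallest unadjusted p, with -1.03 ± 0.27 (unadjusted p = 0.000774, adjusted p = 0.232). Of 15 T helper subset genes 10 were negative (median -0.17). In the pool Il10 was at -1.06 ± 0.35 and the regulatory T cell factor Foxp3 at -0.75 ± 0.37 (adjusted p = 0.548 and 0.695). The Foxp3 value was -0.65 in CD4+, 0.03 in CD8+ and -2.62 in CD45+ cells, so it was lowest outside the sorted T cells. For Il10, a gene of low counts, the values were -0.97, -3.13 and -0.64 in the same order. TGF-beta and Smad genes had a median of 0.06 over 13 genes, and 0 had an unadjusted p under 0.05. Of 25 interferon-stimulated genes 19 were positive (median 0.13), with Ifit3 at 1.03 ± 0.34 (adjusted p = 0.549). Of 19 immediate early genes 15 were negative (median -0.17), and of 13 heat shock genes 9 were positive (median 0.08), with Hsp90aa1 at 0.89 ± 0.34 (adjusted p = 0.624). Immediate early and heat shock genes respond to tissue dissociation, and their part in other values was not tested.

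Markers of other cells in the sorts were compared as sums. Over 33 sums, 11 lists in 3 populations, the smallest exact permutation p was 0.0286 (n = 4 per group), in 2 of them, and the smallest adjusted p was 0.471. The coreceptor sum in CD4+ cells was 690 to 889 CPM in WT and 990 to 1079 CPM in Yap-cKO, and the sum of dendritic cell markers there was 11.9 to 15 CPM and 15.2 to 20.1 CPM. Within the dendritic cell list, Ccr9, a chemokine receptor that T cells also express, had a mean of 6.01 CPM in WT and of 9.47 CPM in Yap-cKO CD4+ cells. Siglech, of plasmacytoid dendritic cells, had means of 1.19 and 2.94 CPM, and the lectin gene Cd209a went the other way, with 1.43 and 0.667 CPM. All 8 B cell markers were positive in the pool (median log2 fold change 0.38), and their sum in CD8+ cells ran from 78.7 to 118 CPM in WT and from 78.4 to 207 CPM in Yap-cKO. Of 7 monocyte and macrophage markers 6 were negative (median -0.86), with Cd14, a coreceptor for bacterial lipopolysaccharide, at -2.83 ± 0.73 (adjusted p = 0.219). All 5 T cell markers were negative in the pool (median -0.22) and all 5 NK cell markers too (median -0.25). The T cell marker median was -0.14 in CD4+, -0.0057 in CD8+ and -0.42 in CD45+ cells. That of NK cell markers was 0.15, -0.39 and -0.10. Plasma cell markers had a median of -0.17 over 4 tested genes, dendritic cell markers 0.05 over 7, neutrophil markers -0.44 over 4 and stromal and endothelial markers 0.08 over 4. Melanoma markers had a median of -0.15 over 5 tested genes, with Tyrp1, an enzyme of melanin synthesis, at -2.23 ± 0.70 (unadjusted p = 0.00399, adjusted p = 0.505). In CD45+ cells the list median was -1.23, and the sum ran from 9.03 to 24.8 CPM in WT and from 5.19 to 12.2 CPM in Yap-cKO (exact permutation p = 0.0571, adjusted p = 0.629, n = 4). The CD4 and CD8 coreceptors had a median of -0.15 over 3 genes, and 1 erythrocyte marker was tested, at -0.59.

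Genes of chromosome X that escape inactivation were higher in the Yap-cKO libraries in all 6 cases tested, with a median of 0.44, and 4 of the 6 had an unadjusted p under 0.05. Kdm5c, a histone demethylase, had 0.39 ± 0.10 (adjusted p = 0.267). All Yap-cKO libraries also lacked Y-linked transcripts, as noted above, and whether these X-linked values follow that or the genotype was not tested. With WT replicate 4 as the only WT number, 26 genes were called, of which 10 were among the 22. Of the 22, 19 could be fitted and all 19 had the same sign, while Pkd1l1, Gm15975 and Ighg2c could not be fitted. Rps3a3 then had a log2 fold change of -6.05, Gm7600 of 6.49 and Cfap74 of 2.40. That fit holds 1 WT library per population, which may all be of 1 mouse, so its calls do not measure the spread between WT mice. Ccl6, which was far highest in WT CD45+ replicate 4, was among the calls of that fit. With the mean of 4 Y-linked genes as a covariate, 14 of the 22 were called. Near Yap1, 53 genes were tested within 10 Mb on either side, and 0 of them had an adjusted p under 0.05 in edgeR. Of these 53, 4 genes had an unadjusted p under 0.05, 7.55% against 7.06% of all tested genes.

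**Figure D4:**
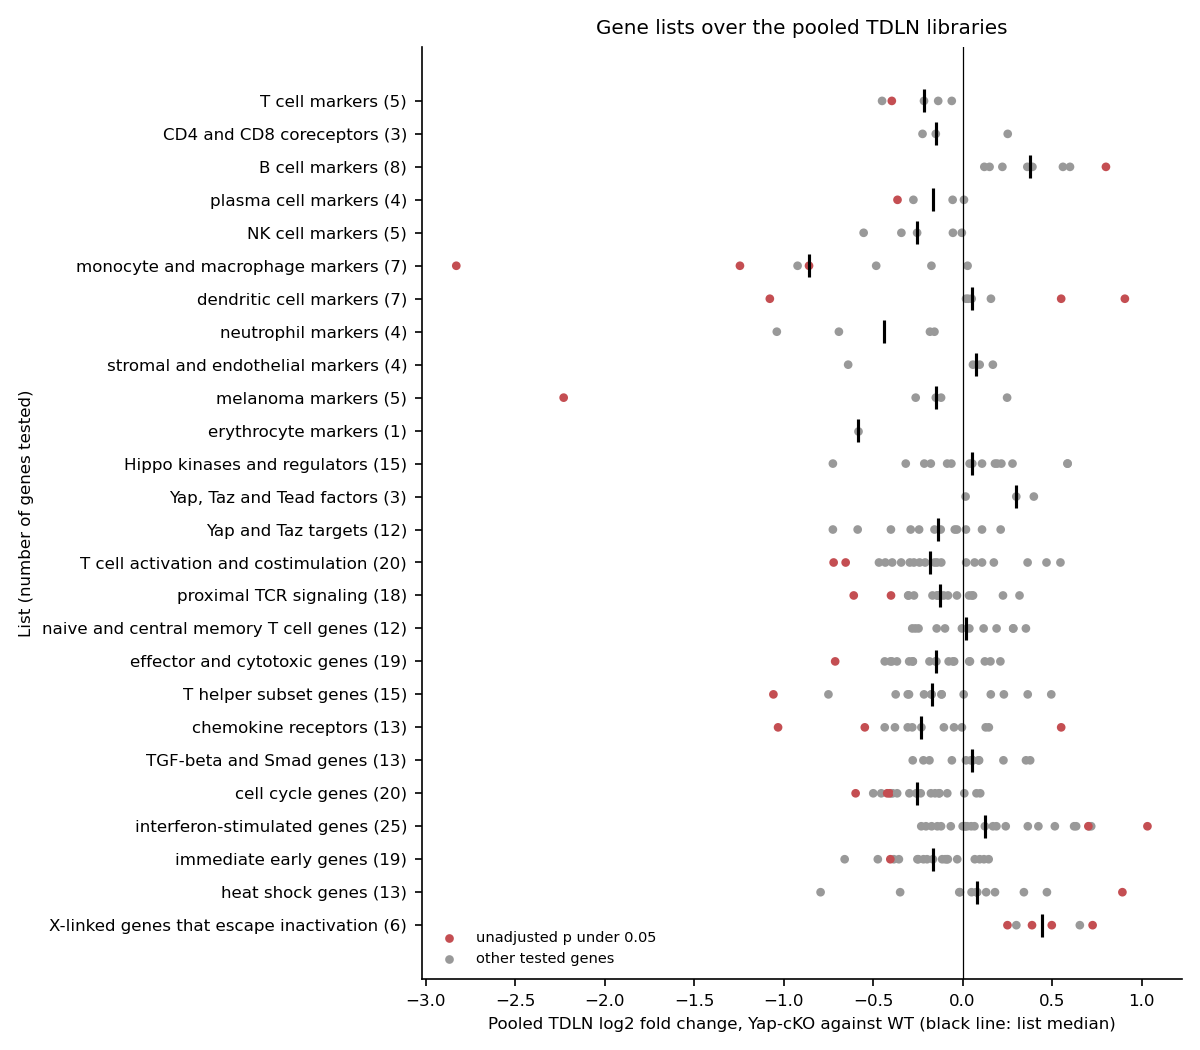
Pooled TDLN log2 fold change of every tested gene of each list (x axis), red at an unadjusted p under 0.05 and gray otherwise, with a black line at the list median. Most medians lie near 0, from -0.86 for monocyte and macrophage markers to 0.44 for X-linked genes that escape inactivation, and no gene of these lists was called in the pool.

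The same pooled fit was made for the 24 TIL libraries, in which 2386 of 15830 genes were called, 15.1% of those tested. Of the 22 genes called in the TDLN, 19 could be tested in TILs, 17 of them had the same sign there, and 16 were called with the same sign. Rps3a3 had a log2 fold change of -6.20 in TILs (adjusted p = 9.11e-15), Gm7600 4.95, Gm4956 6.36 and Cnbd2 -1.12. A test of the tissue difference over 48 libraries passed for 5 of the 22, which were Cfap74, Rab6b, Gabrd, Ighg2c and Ccl6. It also passed for Rps3a1, which had 0.80 in the TDLN and -0.05 in TILs (adjusted p of the difference 0.0011). Libraries of both tissues may come from the same mice, which this test did not take into account.

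**Figure D5:**
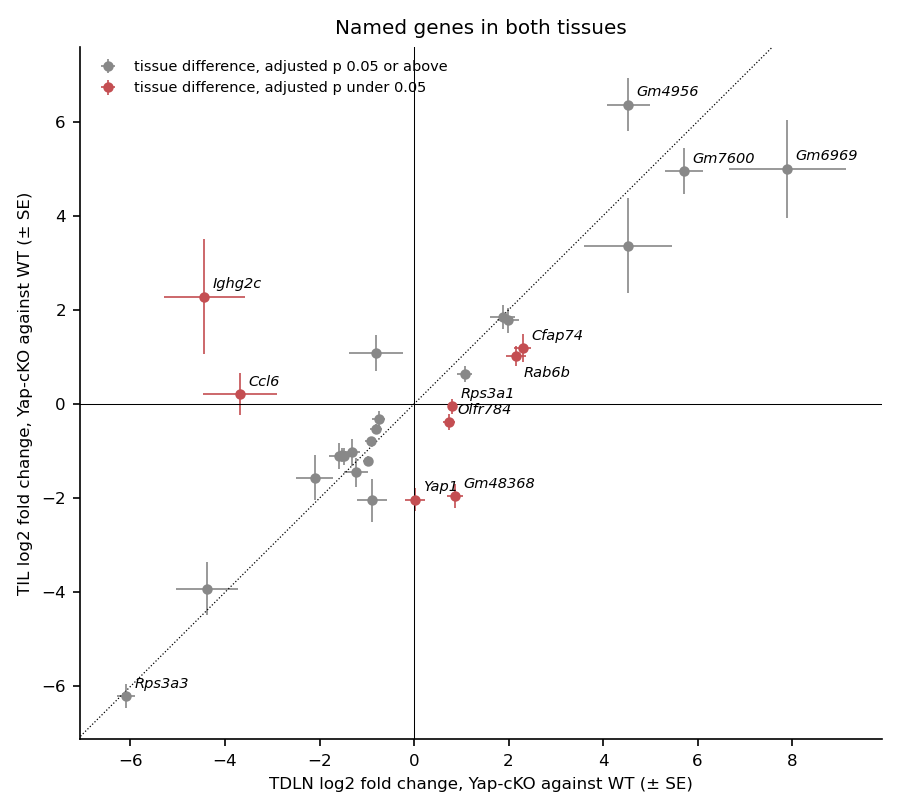
Log2 fold change of Yap-cKO against WT over pooled TDLN libraries (x axis) and pooled TIL libraries (y axis) with SE bars, for the named genes tested in both, red where the tissue difference had an adjusted p under 0.05. Rps3a3, Gm7600 and Gm4956 lie far from 0 in both tissues, Yap1 is at 0.02 in the TDLN and -2.04 in TILs, and the dotted line marks equal values.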

How the data were processed

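Libraries were prepared from flow-sorted cells with SMART-Seq v4 chemistry and read as pairs. The authors quantified transcripts with Salmon 0.9.1 on mm10 (GRCm38), after FastQC and Trimmomatic per the labels, and deposited an expected count, a TPM value and an effective length for each transcript. Deposited TPM and effective lengths (another deposited measure) served only for length offsets in one alternative. Expected counts of 111787 of 112092 transcripts were summed over GENCODE M21 genes and rounded. Totals ran from 14935349 to 24213892 counts per TDLN library, at which 3 counts correspond to 0.124 to 0.201 CPM. Amplified reads carried no molecular identifiers, so such floors cover counting error only.

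A gene entered the test when 4 or more of the 24 libraries held 10 or more counts. The tool was edgeR 4.0.16 under R 4.3.3 (TMM, quasi-likelihood F test), with population as block. P-values were adjusted over all genes by the Benjamini-Hochberg method. Genes of chromosome Y were left out, and Xist was not analysed here. Scripts were tested on simulated data. In 36 pairs of libraries of a group, 0 were within sampling noise. Nothing in the labels says that replicates are separate mice, so p-values measure the spread between these libraries. Named genes were all pooled calls, at most 8 further calls per population by p, any interaction calls, Yap1, at most 4 members of each list by p, sex-linked genes and the gene closest in sequence to a named processed pseudogene. Others, such as genes with an adjusted p alone under 0.05, were named after their values were seen. Members and lists were chosen with earlier results of these data known. Alternatives included DESeq2 1.42.0, limma, other filters and scalings, covariates, the replicate block and each library left out.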

Additional observations from a re-analysis of the deposited data

Results flagged for a closer look

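In groups of 4 libraries, 15 of 181 tested groups (8.29%) held a library whose gap to the nearest other exceeded Dixon's 95% critical value, which chance does in about 1 in 20 groups. Among the called genes these were Rps3a3 in Yap-cKO CD4+ replicate 3 (0.517 CPM against 1.49 CPM for the next), Gm7600 in WT CD4+ replicate 3 (0.325 CPM), Gm4956 in Yap-cKO CD8+ replicate 3 (0.240 CPM) and Camk2b in Yap-cKO CD8+ replicate 1 (11 CPM). Gm2011 in Yap-cKO CD8+ replicate 3 was at 12.6 CPM, against 7.45 CPM for the next library. Tgif1-ps stood out in Yap-cKO CD45+ replicate 2 (0.297 CPM), Amd-ps3 in WT CD4+ replicate 3 (0.705 CPM), and Akap1 in WT CD4+ replicate 1 (10.9 CPM) and Yap-cKO CD45+ replicate 1 (1.06 CPM). Ighg2c in WT CD45+ replicate 3 (59.3 CPM) and Ccl6 in WT CD45+ replicate 4 (617 CPM) are the libraries without which those adjusted p-values were highest (0.227 and 0.627). The Ccl6 call was lost in 18 of 24 and the Ighg2c call in 4 of 24 fits without 1 library.

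Marker sums that stood out were those of B cells in WT CD4+ replicate 3 (94.8 CPM against 36.5 CPM for the next), of dendritic cells in WT CD4+ replicate 4 (15 CPM), of neutrophils in WT CD4+ replicate 4 (0.331 CPM) and of erythrocytes in Yap-cKO CD45+ replicate 1 (0 CPM, against 0.814 CPM for the next).

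The genotype difference differed between TILs and TDLN, tested over 48 libraries in edgeR and given as the TIL minus the TDLN log2 fold change, for 9 named genes. It was lower in TILs for Cfap74 (-1.15, adjusted p = 0.0222), Rab6b (-1.17, adjusted p = 0.0082), Gabrd (-3.08, adjusted p = 0.0242) and Rps3a1 (-0.88, adjusted p = 0.0011). The same held for Olfr784 (-1.16, adjusted p = 0.000348), Gm48368 (-2.85, adjusted p = 7.4e-08) and Yap1 (-2.09, adjusted p = 3.09e-05). It was higher in TILs for Ighg2c (6.75, adjusted p = 0.00465) and Ccl6 (3.87, adjusted p = 0.00362).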

How the results depend on the processing

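With any 1 library left out, 17 of the 22 called genes kept the call wherever they could be fitted (Gabrd in 20 of 24 fits), and 7 kept it under all settings in which they could be fitted, which were Rps3a3, Gm7600, Cfap74, Cnbd2, Gm46223, Gm4956 and Vmn2r97. The pooled count of 22 became 13 with 10 counts required in 12 libraries, 11 with libraries summed per number and 73 (8 higher, 65 lower) with the Y-linked covariate. The count of 19 shared genes became 39 with that covariate and 11 with WT number 4 alone. The CD4+ count of 11 became 20 with DESeq2, 5 with the Y-linked covariate, 1 with WT number 4 and 6 in its own fit of 8 libraries. The CD8+ count of 8 became 16 with DESeq2, 5 with RLE scaling and 5 with length offsets, 4 with the Y-linked covariate, 2 with WT number 4 and 2 in its own fit. The CD45+ count of 13 became 51 with DESeq2, 25 with no filter, 103 with the Y-linked covariate, 147 with WT number 4 and 8 in its own fit. The interaction count of 0 became 5 with DESeq2 and 12 with WT number 4. Leaving out 1 library or number gave 3 to 9 calls in CD8+ and 9 to 53 in CD45+ cells, the 53 without WT CD45+ replicate 2. The causes were not tested. The Yap1 log2 fold change of 0.02 turned to -0.0030 with no filter, -0.0015 with length offsets, -0.062 with the replicate block, -0.050 with mouse as a random block, -0.16 with WT number 4 and -0.090 with the GC covariate (added after seeing the data), and ran from -0.27 to 0.17 with libraries left out.

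Same-numbered WT and Yap-cKO libraries did not deviate together, with correlations from -0.706 to 0.552, and 2 of 12 matched their own number best. The part of the GC slope in these correlations was not tested either. As a replicate block the numbers gave 19 pooled, 7 CD4+, 2 CD8+ and 7 CD45+ calls.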
